A study of Gallus gallus with 15 samples.

Results

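Fasting and insulin neutralization both lower the insulin that can act on adipose tissue, and the comparison described here set these treatments together against fed birds. The mean of the fasted group mean and the insulin-neutralized group mean, each with a weight of 0.5, was compared with the fed group mean in a single linear model of all 15 arrays, so all 15 of the 15 birds of the series entered it. Within this comparison the genes of interest were those moved the same way by each treatment. All birds were male ISA915 broilers, bred for meat, of 16 to 17 days of age, and abdominal adipose tissue of each bird was hybridised to 1 Affymetrix chicken genome array. The 5 fasted birds had no feed for 5 h and received normal porcine serum. The 5 insulin-neutralized birds kept their feed and received porcine serum with antibodies against insulin at 0, 2 and 4 h. The 5 fed birds ate ad libitum and received normal porcine serum, as the fasted birds did. By design, the insulin-neutralized birds could still eat and the fasted birds could not. Values are log2 expression levels as the authors deposited them, normalised by GCRMA, a method that corrects the background from probe sequence. Of 38535 probe sets, 96 array controls and 19827 probe sets with a value below 3 on at least 5 arrays were left out, and 18612 were tested. Of these, 14940 carry 1 gene symbol and stand for 9243 genes.

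Insulin is the hormone of the fed state. In most vertebrate tissues it restrains the FOXO transcription factors, which otherwise turn on genes for sparing glucose and for breaking down cell components, and it favours the synthesis of lipid, protein and cholesterol. Between meals glucagon takes over, and in birds it strongly promotes the release of stored fat. The paper reports raised plasma glucagon in fasted and in insulin-neutralized birds, and its part in the shared changes was not tested here. It also cites earlier work in which insulin did not start the classical receptor cascade in chicken fat. The liver makes most of the fatty acids that chicken fat stores as triacylglycerol.

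The tissue carried the transcripts of fat cells at high levels in all 3 groups. Levels are log2 values, given as group means. FABP4, the fatty acid carrier of adipocytes, averaged 16.34 in fasted, 16.35 in insulin-neutralized and 16.26 in fed birds, and ADIPOQ, the adipokine adiponectin, averaged 12.98 in fasted, 12.92 in insulin-neutralized and 12.98 in fed birds. Of 10 adipocyte markers tested, 2 were called lower in the treated birds, DGAT2 and CEBPA, and 0 were called higher. The mean level of the 10 markers lay between 12.31 and 12.94 in fasted birds, between 12.41 and 13.00 in insulin-neutralized birds and between 13.09 and 13.31 in fed birds, and its part in the results was not tested. That mean takes in the called genes DGAT2 (-3.00) and CEBPA (-1.12). Over the 10 markers the median change was -0.17, with 3 above 0 and 7 below. Marker lists of preadipocytes (11 tested), macrophages (10), T cells (6), B cells (2), heterophils (3) and erythrocytes (8) held 0 called genes. So did those of smooth muscle (5), skeletal muscle (3), mesothelium (5), lung epithelium (9) and liver (6). Over all genes 6.81% were called, and lists this small do not show whether cell content changed. The 6 liver markers had the widest bird-to-bird range, with mean levels of 6.95 to 12.12 in fasted, 6.89 to 11.62 in insulin-neutralized and 6.64 to 8.54 in fed birds, and a median change of 1.22 whose part in the results was not tested. Of 2 pancreas markers GCG, which encodes glucagon, was called higher. Among 10 endothelial markers CDH5, the cadherin of vessel walls, was called higher, but not without fed birds 4 and 5 (0.23, adjusted p = 0.131), and KDR, a receptor for vascular endothelial growth factor, had the largest change of the list in the other direction (-0.85, adjusted p = 0.0623). The median change of the 10 was 0.38 on the log2 scale, or 0.15 without fed birds 4 and 5. That fit also called CSF1R, a macrophage marker (0.45, adjusted p = 0.0418), and APOA1, a liver marker (0.78, adjusted p = 0.0344), higher. Those birds stood apart from the rest, with a mean correlation to the other arrays of 0.955 and 0.958, against 0.963 to 0.977 for the remaining birds. List counts without them are given where they differ from those with all birds. In bulk tissue, fewer cells of a type and less RNA per cell cannot be told apart.

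In the combined comparison 1051 probe sets were called at an adjusted p under 0.05 in limma, 5.65% of those tested. Of these, 524 were higher in the treated birds (2.82%) and 527 were lower (2.83%), and they represent 325 named genes higher and 414 lower. With each array centred on its median, 528 were higher and 370 lower, and with quantile normalization 513 and 453. The median size of a called change was 0.60 on the log2 scale, and 552 probe sets (52.5%) changed by 1.5-fold or more. The median SE over all probe sets was 0.15. A call here does not require that each treatment moved the gene: 836 of the 1051 were also called for fasted vs. fed birds alone (1794 of all probe sets, 9.64%), 17 for insulin-neutralized vs. fed birds alone (92 of all, 0.494%), 72 for each of these comparisons and 126 for neither. Both comparisons share the fed birds. Among called probe sets that were higher, the median log2 change was 0.96 for fasted minus fed and 0.48 for insulin-neutralized minus fed, and among those that were lower it was -0.59 and -0.44. The treatments had opposite signs in 16 of the 1051. When fed birds 4 and 5 were left out, the comparison called 557 probe sets (2.99%), 334 higher and 223 lower, of which 404 were among the 1051. Leaving out 1 bird moved the count by more than 1.5 times for fed bird 4 (539), insulin-neutralized birds 1 (629) and 3 (667), fed bird 5 (680) and fasted bird 4 (684).

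**Figure D1:**
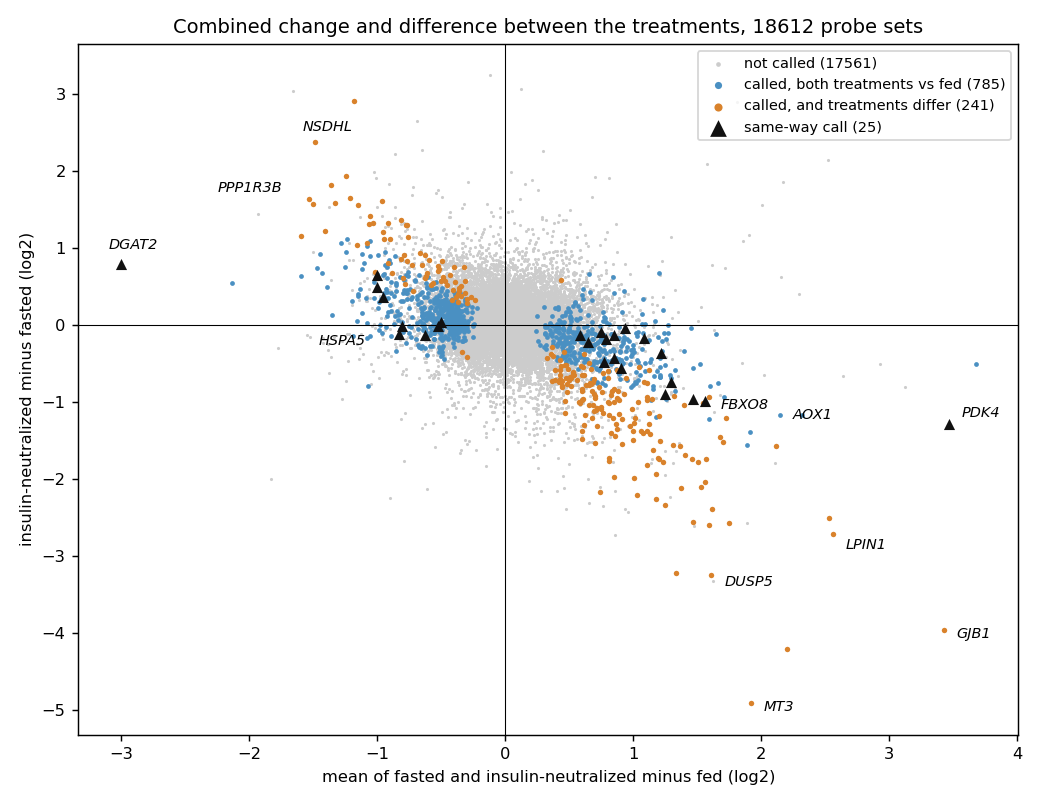
Each point is 1 of 18612 probe sets, with the combined change (mean of fasted and insulin-neutralized minus fed, log2) across and the insulin-neutralized minus fasted difference (log2) upward. Blue points (785) were called in the combined comparison, with neither a same-way call nor a called difference between the treatments. They include probe sets also called against fed birds in a single treatment. Orange points (241) were called in the combined comparison and differed between the treatments, without a same-way call. Black triangles (25) were called the same way under each treatment, and grey points (17561) were not called. PDK4 and DGAT2 lie at the outer ends of the triangles.

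A stricter question was which genes differed from fed birds under each treatment taken by itself. For probe sets with the same sign in both, the larger of the 2 limma p-values was adjusted over all 18612. This rule called 25 probe sets (0.134%), 16 higher in both treatments (0.086%) and 9 lower in both (0.0484%), and 17 of the 25 carry a symbol, for 9 genes higher and 7 lower. In 24 of the 25, the 10 treated birds and the 5 fed birds did not overlap, which the rule that picked the 25 favours, so it adds no support. Over all probe sets 303 (1.63%) were free of overlap. At an unadjusted p under 0.05 in each treatment and the same sign, 1579 probe sets passed (8.48%). Both treatments reached 1.5-fold in 19 of the 25. The 2 treatments differed from each other by the limma contrast in 10 of the 25. The count depended on single birds: it fell to between 3 and 16 without any 1 of fasted birds 1, 3 or 4, insulin-neutralized birds 1 to 5, or fed birds 1, 2 or 4. Without fed birds 4 and 5 together, 24 were called, of which 11 were among the 25.

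PDK4, the kinase that switches off pyruvate dehydrogenase and so spares glucose, had the widest change of the named genes that rose under both treatments. It stood at 14.69, 14.78, 14.77, 15 and 14.49 in fasted birds and 14.09, 13.64, 13.17, 13.56 and 12.81 in insulin-neutralized birds, against 10.76, 10.80, 10.41, 9.47 and 11.73 in fed birds. Every fasted bird lay above every insulin-neutralized bird, and the lowest insulin-neutralized bird lay above the highest fed bird. The combined change was 3.47 on the log2 scale (SE 0.29, adjusted p = 3.53e-05 from limma), or 11.0-fold, made of 4.11 for fasted minus fed and 2.82 for insulin-neutralized minus fed. The insulin-neutralized birds were lower than the fasted birds by 1.29 (adjusted p = 0.0420). PDK4 kept its same-way call in all 15 fits that left out 1 bird.

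DGAT2, which joins the last fatty acid to diacylglycerol in triacylglycerol synthesis, fell the furthest of the named genes that were lower under both treatments. Its levels were 8.44, 6.84, 8.50, 7.35 and 7.27 in fasted birds and 8.12, 8.74, 8.77, 8.35 and 8.33 in insulin-neutralized birds, against 10.70, 11.37, 11.33, 10.77 and 11.19 in fed birds. All 10 treated birds lay well below the lowest fed bird, and fasted and insulin-neutralized birds overlapped. The combined change was -3.00 (SE 0.26, adjusted p = 3.53e-05 from limma), with -3.39 under fasting and -2.61 under insulin neutralization, and the treatments did not differ by the test (difference 0.79, adjusted p = 0.170). The call held in all 15 fits that left out 1 bird. A second DGAT2 probe set of the array had a combined change of -0.49 (adjusted p = 0.118) and was not called.

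FBXO8, an F-box protein that selects substrates for ubiquitination, stood at 9.03, 9.33, 9.37, 9.49 and 9.35 in fasted birds and 8.38, 8.47, 8.08, 8.32 and 8.35 in insulin-neutralized birds, against 7.48, 7.05, 7.10, 7.29 and 7.34 in fed birds. The 3 groups were fully separated, with fasted birds highest and fed birds lowest. Its combined change was 1.56 (SE 0.10, adjusted p = 2.94e-06), and fasting moved it further than insulin neutralization (2.06 against 1.06, adjusted p of the difference 0.000255). The same-way call held in all 15 fits that left out 1 bird. The FBXO8 probe set with the highest level was not called the same way. PSME4 encodes PA200, a proteasome activator, and its log2 change was 1.30 in the probe set with the highest level (SE 0.14). A second PSME4 probe set was also among the 25. CTSV, a lysosomal cathepsin, rose by 0.85 (SE 0.08), and UHRF2, a ubiquitin ligase that binds modified DNA, by 0.85 (SE 0.11). Fasting moved the PSME4 probe set with the highest level and CTSV further than insulin neutralization did (adjusted p of the difference 0.0174 and 0.0222). RANBP9, a scaffold of the CTLH ubiquitin ligase complex, rose by 0.78 (SE 0.08), and the fasted birds lay above the insulin-neutralized birds without overlap (adjusted p of the difference 0.0100).

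IP6K2 makes inositol pyrophosphates, and its levels were 10.84, 11.01, 10.92, 11.04 and 10.89 in fasted birds and 10.91, 10.79, 10.53, 10.33 and 10.32 in insulin-neutralized birds, against 9.55, 9.07, 9.34, 9.77 and 10 in fed birds. The lowest treated bird, insulin-neutralized bird 5, lay above the highest fed bird, fed bird 5. The combined change was 1.21 (SE 0.14, adjusted p = 0.000399), with 1.40 and 1.03 for the fasted and insulin-neutralized birds, which did not differ by the test (adjusted p = 0.260). Another IP6K2 probe set, with a higher level, was not called the same way. PCMTD1, a protein with a methyltransferase domain that resembles the enzyme for repair of damaged aspartates, rose by 1.08 (SE 0.14). BMT2 is known in human cells as SAMTOR, which reports S-adenosylmethionine to the growth kinase complex mTORC1, and it rose by 0.79 (SE 0.10). The probe set that the paper's additional files assign to ZNF217, a zinc finger transcription factor, rose by 0.90 (SE 0.10). Fasting moved it further than insulin neutralization did (1.19 against 0.62, adjusted p of the difference 0.0118).

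**Figure D2:**
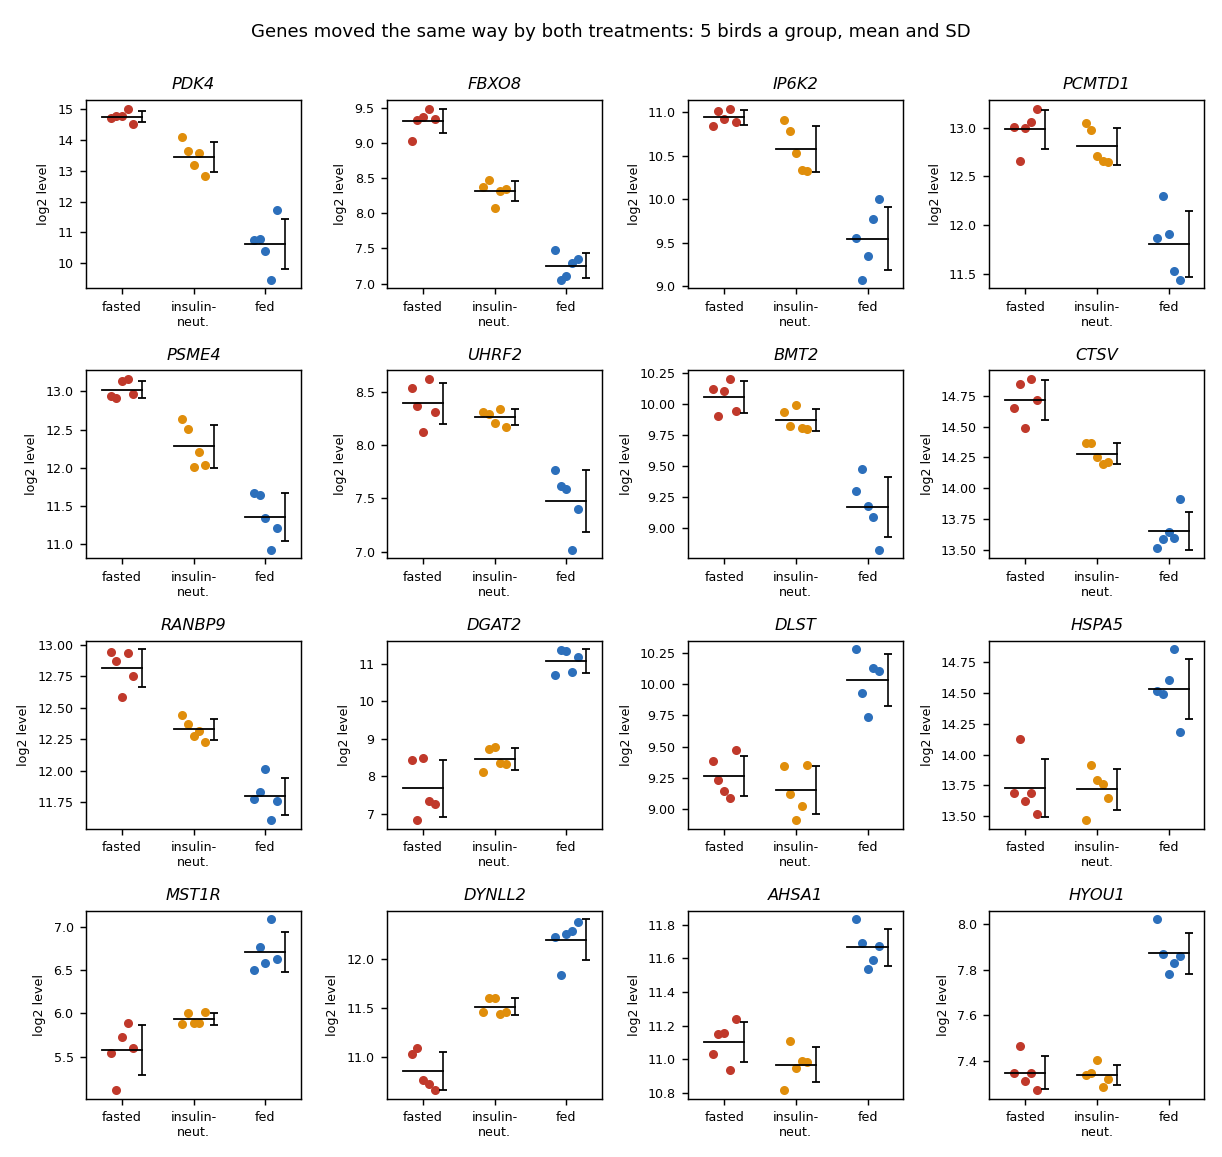
Log2 level of each bird for the 16 named genes called the same way under both treatments, 5 birds a group, with fasted birds at left, insulin-neutralized birds in the middle and fed birds at right; lines are group means and bars are SD. In every panel the 10 treated birds lie on one side of the 5 fed birds, which the choice of these genes favours, and the vertical scale differs between panels.

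HSPA5, or BiP, was among the 7 named genes that fell under both treatments. It is the main chaperone of the endoplasmic reticulum, and its levels were 13.69, 14.13, 13.62, 13.69 and 13.52 in fasted birds and 13.47, 13.91, 13.79, 13.76 and 13.65 in insulin-neutralized birds, against 14.52, 14.49, 14.61, 14.86 and 14.18 in fed birds. The highest treated bird, fasted bird 2, lay just below the lowest fed bird, fed bird 5. The change was nearly equal under the treatments, -0.80 with fasting and -0.82 with insulin neutralization, and the combined value was -0.81 (SE 0.12, adjusted p = 0.00187). HYOU1, a chaperone of the same compartment that helps HSPA5 release its clients, stood at 7.35, 7.47, 7.31, 7.35 and 7.27 in fasted birds and 7.34, 7.35, 7.41, 7.28 and 7.32 in insulin-neutralized birds, against 8.02, 7.87, 7.78, 7.83 and 7.86 in fed birds. The 2 treated groups lay on top of each other and below all fed birds. HYOU1 changed by -0.53 (SE 0.06, adjusted p = 0.000369), and among the 15 fits that left out 1 bird its same-way call was lost in the one without fasted bird 1 (adjusted p = 0.0519). The HYOU1 probe set with the highest level was not called the same way. AHSA1, the cytosolic protein that speeds the ATP cycle of HSP90, stood at 11.03, 11.15, 11.16, 10.94 and 11.24 in fasted birds and 10.82, 11.11, 10.95, 10.99 and 10.98 in insulin-neutralized birds, against 11.83, 11.69, 11.54, 11.59 and 11.67 in fed birds. All treated birds lay below the lowest fed bird. AHSA1 changed by -0.56 with fasting and -0.70 with insulin neutralization, a difference that did not pass the test (adjusted p = 0.464).

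Among the others that fell under both treatments, DLST is the succinyltransferase of the 2-oxoglutarate dehydrogenase complex in the tricarboxylic acid cycle. Its levels were 9.38, 9.23, 9.15, 9.09 and 9.47 in fasted birds and 9.34, 9.12, 8.91, 9.03 and 9.35 in insulin-neutralized birds, against 10.28, 9.93, 9.74, 10.13 and 10.11 in fed birds. No treated bird reached the lowest fed bird, and the treatments overlapped. DLST changed by -0.83 (SE 0.11, adjusted p = 0.000671). DYNLL2, a dynein light chain, fell by 1.01 (SE 0.10), MST1R, the receptor of macrophage-stimulating protein, by 0.96 (SE 0.12), and the probe set assigned to GRAMD2 in the paper's additional files by 1.0 (SE 0.09). Fasting moved DYNLL2 and the GRAMD2 probe set further than insulin neutralization did (adjusted p of the difference 0.00555 and 0.0228). The same-way calls of the genes outside PDK4, DGAT2, FBXO8, HYOU1 and GRAMD2 held in 1 (PSME4, MST1R) to 7 (PCMTD1) of the 15 fits that left out 1 bird, with adjusted p-values up to 0.162. Without fed birds 4 and 5 the same-way call was lost for PCMTD1, PSME4, UHRF2, BMT2, RANBP9, ZNF217, DLST, DYNLL2 and MST1R (adjusted p = 0.0533 to 0.121). In the combined comparison all 16 named genes stayed called in each of those 15 fits.

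When each treatment was adjusted on its own, 72 probe sets (0.387%) were called against fed birds under both and in the same direction, 40 higher and 32 lower, including the 25. AOX1, an aldehyde oxidase, belongs to the larger set. It stood at 6.86, 5.54, 6.26, 5.73 and 5.65 in fasted birds and 4.38, 4.23, 4.90, 4.90 and 5.74 in insulin-neutralized birds, against 3.61, 3.09, 3.46, 3.61 and 2.57 in fed birds. All treated birds lay above all fed birds, and the fed birds lay near the lowest value in the table (2.18), where differences are compressed. The combined change was 2.15 (SE 0.27, adjusted p = 0.000635). AGTR1, the type 1 angiotensin receptor, rose by 1.54 (SE 0.17), IFNAR1, a chain of the type I interferon receptor, by 1.13 (SE 0.10), ICA1, a protein of vesicle traffic, by 1.19 (SE 0.15), and ACBD5, a peroxisomal protein that binds acyl-CoA, by 1.05 (SE 0.13). The adjusted same-way p of these 5 genes from limma lay between 0.0534 and 0.0738. Lower under each treatment were PTP4A3, a phosphatase (-1.03), EEPD1, a nuclease of stalled replication forks (-1.19), ANKRD9 (-1.06), DOT1L, which methylates histone H3 (-0.75), FAHD1, a mitochondrial oxaloacetate decarboxylase (-0.66), and BTBD11 (-0.65). Their adjusted same-way p-values were 0.0516 to 0.107. PLEKHH2 had nearly equal changes of 1.47 with fasting and 1.43 with insulin neutralization, but it was called only for fasting (adjusted p = 0.0599 for the second), and its combined change of 1.45 was not called without fed birds 4 and 5 (1.03, adjusted p = 0.0614). The DHDDS probe set with the highest level was not called (-0.22, adjusted p = 0.272), while a second one was (-0.68, adjusted p = 0.00731).

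Pooling the treatments brought in 126 probe sets (0.677% of those tested) that were called against fed birds in neither treatment alone, 35 higher and 91 lower. HSP90AA1, the inducible cytosolic HSP90, is an example. One of its probe sets stood at 12.27, 11.65, 11.49, 11.81 and 11.80 in fasted birds and 11.65, 11.86, 12.09, 11.57 and 11.42 in insulin-neutralized birds, against 12.83, 12.95, 12.96, 12.42 and 11.65 in fed birds. Fed bird 5 lay within the range of the treated birds and the other 4 fed birds lay above it. The changes were -0.76 with fasting (adjusted p = 0.0587) and -0.84 with insulin neutralization (adjusted p = 0.122), and the combined value of -0.80 was called (SE 0.20, adjusted p = 0.0366). The HSP90AA1 probe set with the highest level was not called (-0.47, adjusted p = 0.0929). The genes of this class with the largest rises were POF1B, an actin-binding protein (1.08), PIK3CA, a catalytic subunit of phosphatidylinositol 3-kinase (1.06), S1PR1, the sphingosine 1-phosphate receptor of vessels (0.93), RIPK3, a kinase of necroptosis (0.89), ANKS1B (0.84) and CLIP1, which binds growing microtubule ends (0.81). The largest falls, beside HSP90AA1, were in LRFN5, a synaptic adhesion protein (-0.99), RNPEPL1, an aminopeptidase (-0.85), APLN, the peptide hormone apelin (-0.78), GLB1L2 (-0.75) and IAH1, an esterase (-0.65). Of these 12 genes, S1PR1 and HSP90AA1 were also called without fed birds 4 and 5 (adjusted p = 0.0231 and 0.00296), and the other 10 were not (adjusted p = 0.0857 to 0.285). Across the 15 fits that left out 1 bird, S1PR1 was called in all 15, but HSP90AA1 in only 4. The other 10 were called in 2 (POF1B and CLIP1) to 14 (RNPEPL1) of them.

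A combined call could also rest mainly on 1 treatment. The insulin-neutralized minus fasted contrast called 251 of the 1051 (1.35% of all 18612 tested). Over all 18612 probe sets it called 756 (4.06%), which include the 251. Both percentages are of the 18612. The share called among the 1051 was larger than the 4.06% over all probe sets. In 248 of the 251 the insulin-neutralized birds had the smaller change, and 174 of the 251 were higher than fed in the combined comparison and 77 lower. GJB1, a gap junction protein, stood at 12.35, 13.12, 12.82, 13.17 and 12.25 in fasted birds and 8.36, 9.63, 8.52, 8.61 and 8.77 in insulin-neutralized birds, against 6.30, 7.17, 7.12, 8.0 and 8.07 in fed birds. The fasted birds were far above both other groups, and every insulin-neutralized bird lay above the highest fed bird. Its changes were 5.41 with fasting and 1.45 with insulin neutralization, and the second missed the threshold (adjusted p = 0.0705). LPIN1, a phosphatidate phosphatase of triacylglycerol synthesis, followed the same order, at 3.92 with fasting and 1.20 with insulin neutralization (adjusted p of the difference 0.000205). MT3, a metallothionein, rose by 4.38 with fasting, against -0.54 in insulin-neutralized birds, and MT4, DUSP5, a phosphatase of ERK kinases, and NARF differed between the treatments by -3.23, -3.25 and -2.60. DUSP5 averaged 10.96 ± 0.32 in fasted, 7.71 ± 0.77 in insulin-neutralized and 7.72 ± 0.49 in fed birds (SD, n = 5 each), so that the insulin-neutralized and fed means nearly coincide.

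Genes that fell in the combined comparison chiefly with fasting included genes of cholesterol synthesis, among them NSDHL and FDFT1. NSDHL, a sterol dehydrogenase, stood at 6.80, 7.60, 7.74, 7.44 and 6.77 in fasted birds and 9.13, 10.17, 9.33, 10.28 and 9.29 in insulin-neutralized birds, against 9.68, 10.19, 10.28, 10.78 and 8.76 in fed birds. The fasted birds lay below every bird of the other groups, which overlapped each other. The change was -2.67 with fasting and -0.30 with insulin neutralization (adjusted p of the difference 0.00216), and for FDFT1, squalene synthase, it was -1.77 and -0.35 (adjusted p = 0.00311). PPP1R3B, which brings protein phosphatase 1 to glycogen, fell with fasting by 2.29 and with insulin neutralization by 0.71 (adjusted p = 0.0352 for the second and 7.18e-05 for the difference). RTN4R, the Nogo receptor, FGFR3, a fibroblast growth factor receptor, and IDI2, an isopentenyl diphosphate isomerase, differed between the treatments by 1.82, 1.58 and 1.56. RTN4R averaged 3.76 in fasted birds, near the lowest value in the table.

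**Figure D3:**
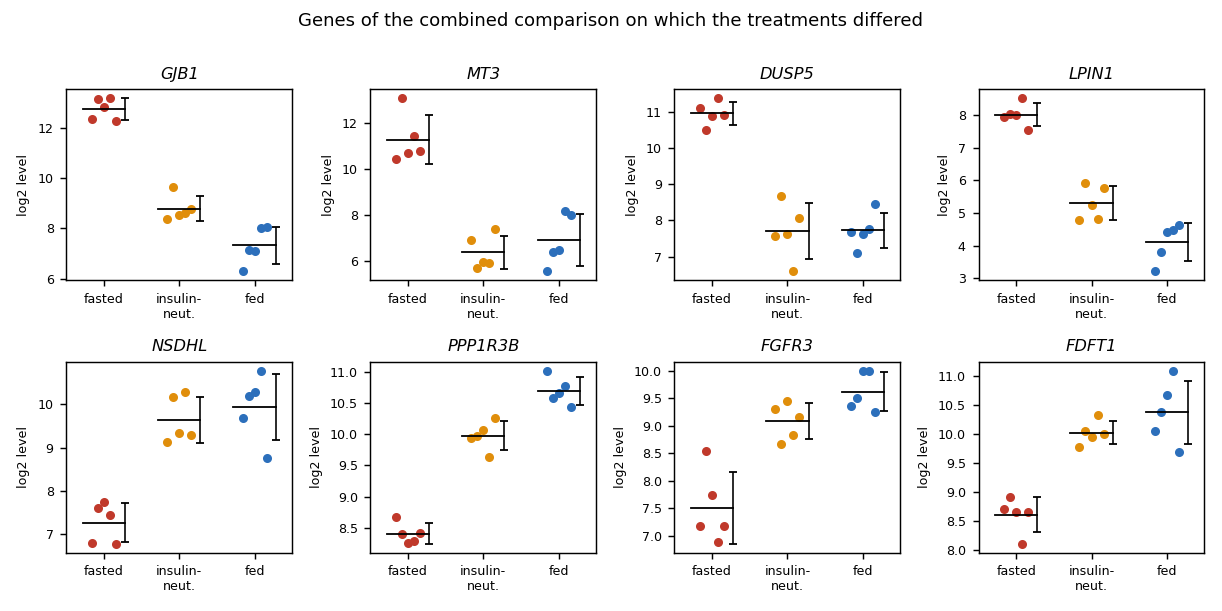
Log2 level of each bird for 8 genes of the combined comparison on which fasted and insulin-neutralized birds differed, 5 birds a group, with fasted birds at left, insulin-neutralized birds in the middle and fed birds at right; lines are group means and bars are SD. The fasted birds stand apart in all 8 panels, and in MT3 and DUSP5 the insulin-neutralized and fed birds overlap, while in GJB1 and LPIN1 the insulin-neutralized birds lie above the fed birds.

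Gene lists describe which cell functions held called members, read against all genes, of which 6.81% were called with 1 probe set per gene, 2.94% higher and 3.86% lower. These shares were 1.97% higher and 1.37% lower without fed birds 4 and 5. Fewer fed birds remain in that fit, so a lost call there need not mean a smaller change. The median change over all genes was -0.04 on the log2 scale. The lists were chosen with earlier results of these data known, so their shares add no independent support. PDK4, SESN1 and BNIP3 of the FOXO list had already risen with fasting in the paper's array values. Genes known from mammals to be induced by FOXO factors had 6 called higher and 0 lower of 25, with a median of 0.16. Beside PDK4 these were SESN1, a sestrin that restrains mTORC1 (0.56, SE 0.09), BNIP3, a receptor for mitophagy (0.80, SE 0.10), FBXO32, the muscle atrophy F-box protein atrogin-1 (0.62, SE 0.15), PIK3IP1, an inhibitor of phosphatidylinositol 3-kinase (0.81, SE 0.20), and CAT, catalase (0.40, SE 0.11). SESN1 stood at 14.42, 14.24, 14.25, 14.24 and 14.53 in fasted birds and 14.33, 14.38, 13.97, 14.10 and 14.07 in insulin-neutralized birds, against 13.78, 13.54, 13.75, 13.58 and 13.83 in fed birds. All treated birds lay above all fed birds, and the treatments overlapped. In the paper's array values SESN1 and BNIP3 changed significantly with fasting and not with insulin neutralization. Its array fold changes of these genes differ from those of the probe sets given here. They may rest on other probe sets, which was not checked. By RT-PCR the paper found each of them changed under each treatment. Without fed birds 4 and 5, 7 of the 25 were called higher, but CAT was not (0.20, adjusted p = 0.178). PDK4, SESN1 and BNIP3 were called in all 15 fits that left out 1 bird. FBXO32 was called in 13 of them, PIK3IP1 in 7 and CAT in 2. With all birds, the fasted vs. fed comparison called 9 of the 25 higher and 1 lower. The insulin-neutralized vs. fed comparison called PDK4 alone. Medians of the list were 0.26 and 0.11, and over all probe sets these comparisons called 9.64% and 0.494%. Of 32 insulin signalling genes, PIK3CA and PIK3CB, catalytic subunits of phosphatidylinositol 3-kinase, were called higher, and neither was called without fed birds 4 and 5, in which they were lowest and in whose absence INSR, the insulin receptor, was called higher (0.48).

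Ubiquitin ligases and F-box proteins had 8 called higher and 0 lower of 53, with a median of 0.18, and 7 higher and 1 lower without fed birds 4 and 5. The fasted vs. fed comparison called 11 higher and 1 lower, and the insulin-neutralized vs. fed comparison 2 higher, with medians of 0.15 and 0.22. Over all probe sets these comparisons called 9.64% and 0.494%. FBXO8 and UHRF2 are given with the genes that moved the same way. FBXO30, an F-box protein of muscle loss, rose by 0.46 (SE 0.09), and SMURF2, a ligase for TGF-beta signalling proteins, by 0.82 (SE 0.16). HERC4, another ligase, had levels of 10.29, 9.87, 10.10, 10.23 and 10.20 in fasted birds and 9.88, 9.99, 9.80, 9.76 and 9.59 in insulin-neutralized birds, against 9.55, 9.68, 9.25, 8.39 and 8.06 in fed birds. Fed birds 4 and 5 were the lowest birds, and the combined change of 0.98 was 0.48 without them (adjusted p = 0.0472), still a call. Autophagy and lysosomal genes had 5 higher and 0 lower of 48: CTSV, BNIP3, UVRAG, which binds the autophagy regulator Beclin 1 (0.77), NBR1, an autophagy receptor (0.53), and VPS11, a subunit of vesicle tethering complexes (0.27). In the fit without fed birds 4 and 5, 6 were higher. Of the 5 called with all birds, 3 differed between the treatments, among them CTSV and UVRAG. UVRAG changed by 1.08 under fasting and by 0.45 under insulin neutralization (adjusted p of the difference 0.00916). VPS11 was called in 2 of the 15 fits that left out 1 bird, NBR1 in 13 and UVRAG in all 15. The proteasome itself had PSME4 higher and 2 of 35 lower, PSMC5 (-0.45) and PSMB3 (-0.46), and neither of these was called without fed birds 4 and 5. The median of the 35 was -0.17, with 3 genes above 0 and 32 below. Without fed birds 4 and 5 it was -0.11, with 7 above 0 and 28 below.

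Cytosolic and mitochondrial chaperones had 11 of 36 called lower and 1 higher, with a median of -0.28, and 8 lower without fed birds 4 and 5, where 1.37% of all genes were lower. AHSA1 and FKBP4, an immunophilin that binds HSP90, led by p-value. FKBP4 stood at 11.79, 11.69, 11.72, 11.80 and 11.75 in fasted birds and 11.70, 11.80, 11.78, 11.77 and 11.69 in insulin-neutralized birds, against 12.33, 12.19, 12.24, 12.30 and 11.89 in fed birds. The treated birds spanned a narrow band below all fed birds, and the changes were -0.44 with fasting and -0.44 with insulin neutralization. The subunits of the CCT folding ring among the 11 were CCT3, CCT4, CCT5 and CCT6A (-0.50, -0.35, -0.34 and -0.41). CCT3 and CCT6A were called in all 15 fits that left out 1 bird, and CCT4 and CCT5 in 8 each. CCT3 changed by -0.70 with insulin neutralization (adjusted p = 0.0197) and by -0.30 with fasting (adjusted p = 0.0952), and the difference missed the threshold (adjusted p = 0.0524). The mitochondrial partners HSPD1 and HSPE1 and the mitochondrial HSP70 HSPA9 were lower by 0.51, 0.30 and 0.36 (SE 0.13, 0.07 and 0.08). They were called in 8, 14 and 15 of the 15 fits that left out 1 bird, and HSPA8 in 3. HSPA8, the constitutive cytosolic HSP70, was lower with insulin neutralization (-0.51, adjusted p = 0.0338) and not called with fasting (-0.09, adjusted p = 0.591), and the difference was called (adjusted p = 0.0212). DNAJA1, an HSP40 that feeds clients to HSP70, fell by 0.92 (SE 0.18). FKBP5, an immunophilin that glucocorticoids induce, was the 1 chaperone called higher. It stood at 11.17, 11.48, 11.52, 11.42 and 10.87 in fasted birds and 11.55, 10.92, 10.69, 11.39 and 11.10 in insulin-neutralized birds, against 10.08, 9.96, 9.25, 9.96 and 10.82 in fed birds. Fed bird 5 overlapped the lower treated birds and the other fed birds lay below them, and the combined change was 1.20 (SE 0.21, adjusted p = 0.00617).

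In the endoplasmic reticulum, 5 of 32 folding and stress genes were lower and 0 higher, with a median of -0.13. HSPA5 and HYOU1 were joined by the disulfide isomerases PDIA3 (-0.55) and PDIA6 (-0.39), and by DERL3, a protein of misfolded protein export (-0.39). PDIA3, PDIA6 and DERL3 were each not called without fed birds 4 and 5 (adjusted p = 0.0735 to 0.158), although 4 of the 32 were called in that fit. PDIA3 and PDIA6 were called in 3 each of the 15 fits that left out 1 bird, and DERL3 in 12. With each array centred on its median, 3 of the 32 were called lower. ALG5 and ALG13, which build the sugar chain for N-glycans, were lower by 0.45 and 0.46, 2 of 30 in their list. ALG5 was called in all 15 fits that left out 1 bird, and ALG13 in 4. Aminoacyl-tRNA synthetases and their cofactors had 3 of 22 lower, among them AIMP2, a scaffold of the multi-synthetase complex, at 10.46, 10.70, 10.50, 10.29 and 10.57 in fasted birds and 10.25, 10.58, 10.41, 10.51 and 10.47 in insulin-neutralized birds, against 11.17, 10.81, 10.92, 11.06 and 11.15 in fed birds. Treated and fed birds did not overlap, and AIMP2 changed by -0.55 (SE 0.09, adjusted p = 0.00301). FARSA, a phenylalanine synthetase subunit, changed by -0.59 and was not called without fed birds 4 and 5 (adjusted p = 0.0521), when 1 of the 22 was lower. Of 39 ribosome biogenesis genes, NHP2 and NIP7 were lower (-0.73 and -0.49), a share of 5.13% that is near that of all genes, and 1 was lower and 1 higher without fed birds 4 and 5. NHP2 was called in all 15 fits that left out 1 bird, and NIP7 in 4.

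**Figure D4:**
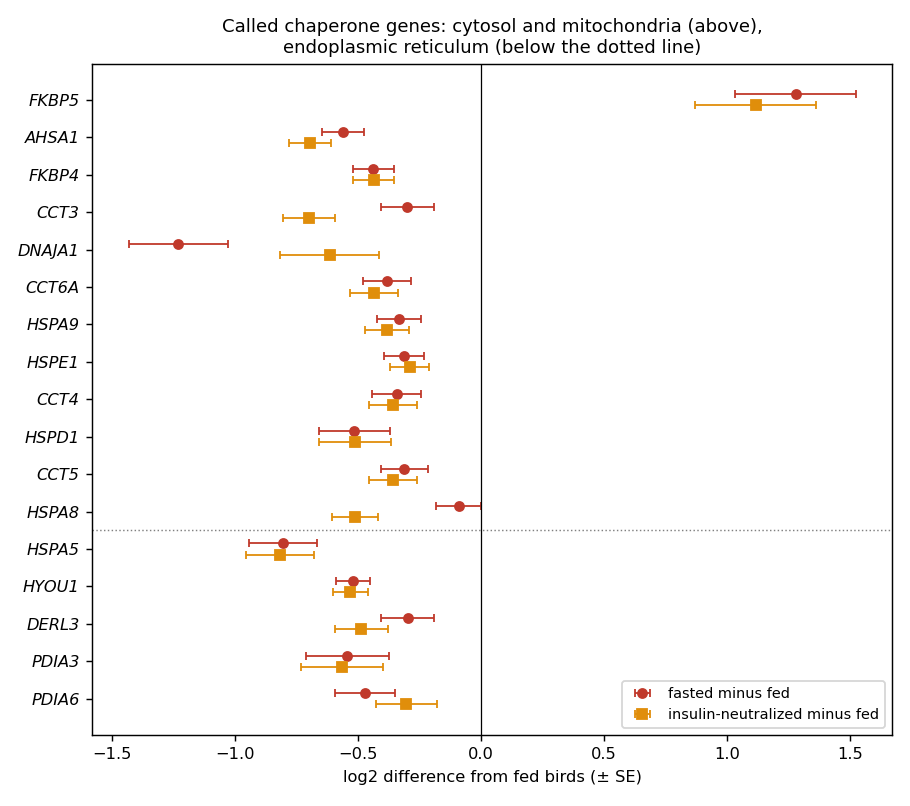
Log2 difference from fed birds (across, ± SE from limma) of the 17 called chaperone genes, with circles for fasted minus fed and squares for insulin-neutralized minus fed, 5 birds a group. The 11 cytosolic and mitochondrial genes below FKBP5 and the 5 endoplasmic reticulum genes under the dotted line lie left of 0 for both treatments, FKBP5 lies right of 0 for both, and for HSPA8 the square lies left of the circle by more than the SE bars, with -0.51 under insulin neutralization and -0.09 under fasting.

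Among lipid genes the calls lay mostly in synthesis. Of 16 fatty acid synthesis genes 3 were lower, ACLY, which makes cytosolic acetyl-CoA (-0.74, SE 0.12), FADS1, a desaturase (-0.77), and PGD, which yields NADPH (-0.40). The fasted vs. fed comparison called 6 of the 16 lower and the insulin-neutralized vs. fed comparison 0, with medians of -0.34 and -0.17. Over all probe sets these comparisons called 9.64% and 0.494%, so the 0 says little about the second treatment. ACLY stood at 10.27, 10.25, 10.55, 10.27 and 10.17 in fasted birds and 10.47, 10.92, 10.49, 10.59 and 10.73 in insulin-neutralized birds, against 11.19, 10.81, 11.02, 11.50 and 11.54 in fed birds. Insulin-neutralized bird 2 was the 1 treated bird that entered the range of the fed birds. Without fed birds 4 and 5 ACLY was still called, FADS1 and PGD were not (adjusted p = 0.0661 and 0.216), and 3 of the 16 were lower. Cholesterol synthesis had 6 of 16 lower, the highest share called lower among the 26 lists, and all 6 differed between the treatments: FDFT1, NSDHL, ACAT2, HSD17B7, DHCR7 and FDPS. Over the list the median change was -1.26 with fasting and -0.23 with insulin neutralization. Triacylglycerol synthesis had 3 lower (DGAT2, GPAT3 and ACSL6) and 2 higher (LPIN1 and ACSL4) of 16, and ACSL6 was not called without fed birds 4 and 5 (adjusted p = 0.0999). GPAT3, which adds the first fatty acid to glycerol phosphate, fell by 0.94 (SE 0.20), and ACSL4, which activates fatty acids, rose by 0.98 (SE 0.16), with a change of 1.63 under fasting and 0.32 under insulin neutralization (adjusted p of the difference 0.00160). None of 11 lipid droplet and lipolysis genes was called. Among 25 genes of fatty acid oxidation, ACBD5 and ACACB, the mitochondrial acetyl-CoA carboxylase (1.5), were called higher. Over the 25 the median change was -0.07, with 8 genes above 0 and 17 below. ACBD5 and ACACB differed between the treatments, and ACACB did not reach an unadjusted p under 0.05 in limma under each treatment.

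In the pyruvate dehydrogenase and tricarboxylic acid cycle list, 5 of 23 were lower and 2 higher, but 1 was lower without fed birds 4 and 5. PDK4 and IDH1, cytosolic isocitrate dehydrogenase (0.51, with 0.84 under fasting and 0.17 under insulin neutralization), were the 2 called higher. DLST was the 1 that stayed called lower, and MDH2, DLD, SDHA and OGDH, with changes of -0.38, -0.34, -0.22 and -0.62, had adjusted p-values of 0.0910 to 0.271 without the 2 birds. Glycolysis had 3 of 17 lower, HK1, TPI1 and PGAM1. HK1, the hexokinase of most tissues, changed by -0.80 (SE 0.13) and was the 1 still called without fed birds 4 and 5 (-0.61, adjusted p = 0.0267).

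**Figure D5:**
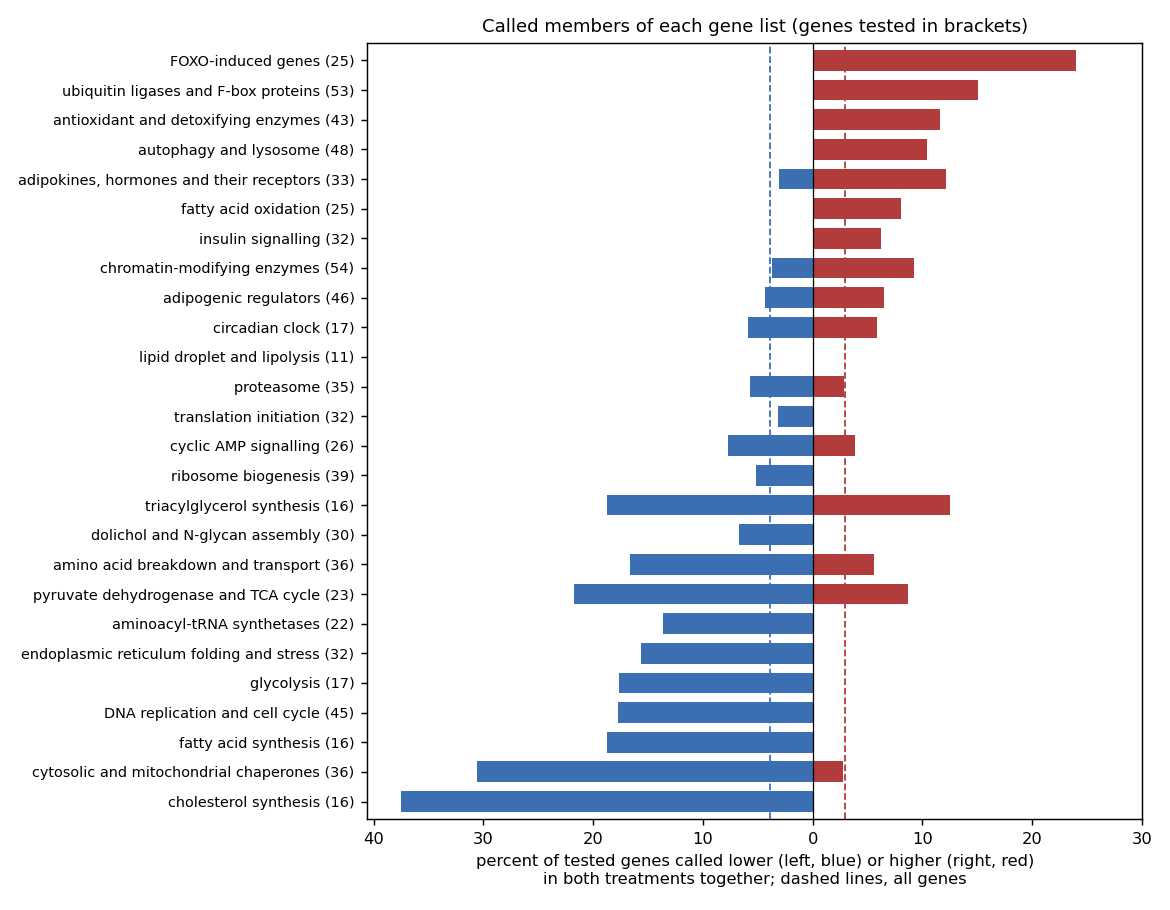
Percent of tested genes in each of 26 lists called higher (right, red) or lower (left, blue) in the mean of fasted and insulin-neutralized birds against fed birds, with the number of genes tested in brackets and dashed lines at the share over all genes (2.94% higher, 3.86% lower). Lower genes reach 37.5% for cholesterol synthesis and 30.6% for cytosolic and mitochondrial chaperones, and higher genes reach 24% for FOXO-induced genes. The lists were chosen with earlier results of these data known.

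DNA replication and cell cycle genes had 8 of 45 lower and 0 higher, with a median of -0.23, and 3 of 45 without fed birds 4 and 5. The fasted vs. fed comparison called 11 lower and the insulin-neutralized vs. fed comparison 0, with medians of -0.29 and -0.17. Over all probe sets these comparisons called 9.64% and 0.494%, so a count of 0 of 45 says little about the second treatment. At an unadjusted p under 0.05 in limma under each treatment, 11 of the 45 were lower in both, and 8.48% of all probe sets passed in either direction. MCM2, a subunit of the replicative helicase, stood at 8.12, 8.68, 8.15, 8.14 and 7.93 in fasted birds and 8.34, 8.68, 8.43, 8.50 and 8.61 in insulin-neutralized birds, against 9.48, 8.81, 9.21, 9.26 and 9.04 in fed birds. All treated birds lay below all fed birds, with fasted bird 2 the highest of its group. MCM2 changed by -0.80 (SE 0.13, adjusted p = 0.00291), and ORC6, which marks replication origins, by -1.20 (SE 0.22). CDT1, which loads the helicase, changed by -0.73 with all birds and by -0.49 without fed birds 4 and 5 (adjusted p = 0.146). MCM3, MCM5, GINS1 and E2F1 also had adjusted p-values above 0.05 in that fit (0.0507 to 0.182), whereas MCM6 did not (0.0461). Chromatin-modifying enzymes had 5 higher and 2 lower of 54. TET2, which oxidises methylcytosine, rose by 0.84, and SUZ12, a subunit of the Polycomb repressive complex, by 0.82, while DOT1L and SETD7, methyltransferases, were lower (-0.75 and -0.48). Of these 54, 2 were higher and 1 lower without fed birds 4 and 5.

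Hormone and receptor genes had 4 higher and 1 lower of 33, and 3 higher and 0 lower without fed birds 4 and 5. GCG, also the pancreas marker, stood at 8.0, 7.55, 7.66, 7.82 and 7.37 in fasted birds and 8.40, 8.35, 8.44, 8.60 and 8.01 in insulin-neutralized birds, against 7.34, 7.47, 7.11, 6.34 and 5.83 in fed birds. Every insulin-neutralized bird lay above every fed bird, and the lowest fasted bird lay within the fed range. Its changes were 1.54 with insulin neutralization (adjusted p = 0.0316) and 0.86 with fasting (adjusted p = 0.0583), and the combined change of 1.20 was still called without fed birds 4 and 5 (0.71, adjusted p = 0.0217). GCGR, the glucagon receptor, stood at 8.46, 7.49, 8.25, 8.03 and 8.82 in fasted birds and 7.37, 8.05, 6.68, 7.24 and 7.73 in insulin-neutralized birds, against 9.22, 8.57, 8.18, 9.04 and 9.42 in fed birds. Fasted birds overlapped fed birds, and the insulin-neutralized birds lay below all fed birds. The combined change of -1.07 was not called without fed birds 4 and 5 (-0.85, adjusted p = 0.189). ACVR1C, an activin receptor of adipocytes, rose by 2.53 (SE 0.31), with 3.78 under fasting and 1.27 under insulin neutralization (adjusted p of the difference 0.00186). Cyclic AMP signalling genes had 2 lower and 1 higher of 26. GCGR and PKIG, an inhibitor of protein kinase A (-0.84), were the 2 called lower, and PDE8A, a phosphodiesterase (1.52), was called higher. PDE8A was lowest in fed birds 4 and 5, and without them none of the 3 was called and CREM, a transcription factor that responds to cyclic AMP, was higher (1.06).

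Adipogenic regulators had 3 higher and 2 lower of 46, and 5 higher and 0 lower without fed birds 4 and 5. CEBPA, a transcription factor of fat cell differentiation, stood at 8.27, 7.02, 8.03, 6.85 and 7.78 in fasted birds and 8.66, 8.50, 8.44, 7.31 and 8.64 in insulin-neutralized birds, against 8.94, 8.78, 9.10, 9.59 and 8.96 in fed birds. All treated birds lay below all fed birds, and CEBPA changed by -1.12 (SE 0.27, adjusted p = 0.0277). Without fed birds 4 and 5 it was not called, though the change was similar in size (-0.99, adjusted p = 0.146). BMP2, a growth factor, and NR1H3, the oxysterol receptor LXR alpha, rose with fasting (1.26 and 1.03), against 0.16 and 0.17 in insulin-neutralized birds, and both differed between the treatments (adjusted p = 0.00213 and 0.00387). NCOR1, a nuclear receptor corepressor, rose by 0.61, or by 0.45 without fed birds 4 and 5 (adjusted p = 0.0348). In the circadian clock list ARNTL, or BMAL1, was higher (0.60) and CRY2, its repressor, lower (-0.37) of 17, and neither was called without fed birds 4 and 5. Amino acid genes had 6 lower and 2 higher of 36, including SLC7A3, a transporter of basic amino acids (-0.65), GOT1, aspartate aminotransferase (-0.63), FAHD1, and SLC38A2, a transporter of neutral amino acids that rose (0.76). Without the 2 birds 3 were lower and 0 higher. Antioxidant and detoxifying enzymes had 5 higher and 0 lower of 43, with AOX1, MT3, MT4, CAT and GCLC, and 4 higher without fed birds 4 and 5. Of these, MT3 and MT4 differed between the treatments. Translation initiation factors had 1 of 32 lower (3.12%).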

How the data were processed

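RNA of abdominal adipose tissue from 15 birds, 5 a group, was hybridised to Affymetrix chicken genome arrays, 1 bird an array. The log2 values were normalised by GCRMA by the authors and were used as deposited. Tools listed in the submitters' notes are R 2.9.0, GCRMA and RMA. Array controls and probe sets below 3 on 5 or more arrays were removed, after which 78 probe sets kept had 4 arrays below 3 and 54 of those removed had exactly 5. One model of 3 groups was fitted with limma 3.58.1 in R 4.3.3 (eBayes, 12 residual and 2.07 prior degrees of freedom), and p-values were adjusted by Benjamini-Hochberg over 18612 probe sets. The contrasts were the mean of both treatments minus fed, each treatment minus fed, and insulin-neutralized minus fasted. For the same-way calls the larger of the p-values for the 2 treatments was adjusted. Changes are differences of log2 means, SD and SE are on that scale, and precision is limited by how many arrays there are. Groups are those of the labels, and p-values measure the spread between birds. The code was tested on simulated data. Figures were drawn with matplotlib 3.10.9.

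Gene names came from the platform annotation, in which 27178 probe sets have 1 symbol and 177 have several. The RefSeq table of genes held 26863 of these and changed 0 symbols. Names of ZNF217 and GRAMD2 come from the paper's additional files. The probe set with the highest mean stands for a gene in lists. HSP90AA1, RIPK3 and IAH1 are given by their called probe set, and FBXO8, IP6K2 and HYOU1 by their same-way probe set, although another probe set has a higher level and stands for FBXO8 and HYOU1 in the lists. Named genes were the same-way calls with the largest smaller change, the 6 higher and 6 lower genes called by pooling alone with the largest change, the 6 with the largest treatment difference in each direction, up to 4 called list members with the smallest p, and the genes that the paper names as moved by both treatments. Further called list members were named after their values were seen. The members, lists and tests were chosen with earlier results of these data known. Alternatives covered filtering, normalization, array weights, the moderation of variances, a replicate block, 1 probe set per gene, leaving out birds and other ways to combine the treatments. List counts without fed birds 4 and 5 and under other normalizations were added after seeing the data. Metabolite and RT-PCR measurements were not analysed here.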

Additional observations from a re-analysis of the deposited data

Results flagged for a closer look

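For the 136 named genes, each group of 5 birds was searched for a highest or lowest bird whose gap to the next bird took up more than 0.71 of the range of the group (Dixon's ratio). Of 408 groups 18 met this (4.41%), and chance gives about 1 in 20. Fasted bird 2 accounts for 6 of the 18.

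Fasted bird 2 was high for HSPA5 (14.13 against 13.52 to 13.69 in the other fasted birds, ratio 0.720), CCT5 (11.47 against 11.13 to 11.19, ratio 0.840), MCM2 (8.68 against 7.93 to 8.15, ratio 0.715) and MCM5 (8.18 against 7.15 to 7.39, ratio 0.769), genes that were lower in the treated birds. It was low for FADS1 (5.78 against 6.37 to 6.51, ratio 0.813) and RTN4R (2.21 against 3.94 to 4.57, ratio 0.732). Fasted bird 3 was high for ACLY (10.55 against 10.17 to 10.27, ratio 0.733) and HK1 (9.85 against 9.39 to 9.46, ratio 0.835). Fasted bird 1 was low for RNPEPL1 (3.28 against 3.90 to 3.98, ratio 0.884) and fasted bird 5 for PLEKHH2 (8.17 against 9.13 to 9.34, ratio 0.820).

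Among insulin-neutralized birds, bird 4 was low for CEBPA (7.31 against 8.44 to 8.66, ratio 0.835) and high for IAH1 (8.73 against 8.55 to 8.59, ratio 0.803). Bird 5 was high for the GRAMD2 probe set (6.98 against 6.66 to 6.73, ratio 0.757) and low for SLC38A2 (12.25 against 12.87 to 13.01, ratio 0.814). Bird 1 was low for NIP7 (8.87 against 9.17 to 9.24, ratio 0.824) and bird 3 for DHDDS (5.25 against 5.62 to 5.72, ratio 0.795). Among fed birds, bird 2 was low for DYNLL2 (11.83 against 12.22 to 12.37, ratio 0.722) and bird 4 for NCOR1 (8.37 against 9.10 to 9.24, ratio 0.840).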

How the results depend on the processing

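The combined comparison called 1051 probe sets, the same-way rule 25 and the treatment difference among combined calls 251. No named gene called in the combined comparison had its combined change reversed under any alternative run. The balance of counts did turn: same-way calls were 16 higher and 9 lower, but 1 and 2 with the replicate block, 2 and 4 without fed bird 1 and 2 and 3 without fed bird 4, and combined calls were 524 and 527, but 528 and 370 with median-centred arrays. With no filter on low values the counts were 550, 14 and 136, over more probe sets. Median-centred arrays left 11 same-way calls, array weights gave 89 and 459 treatment differences, and variance moderation with a trend and robust fitting gave 38 same-way calls. One probe set per gene left 165 treatment differences, over fewer probe sets. Without fed birds 4 and 5 the combined comparison called 557 (334 higher, 223 lower), and with the 10 treated birds as 1 group it called 494. Adjusting each treatment on its own gave 72 same-way calls. The cause was not tested for the settings whose construction does not show it. With the replicate block the same-way rule called 3 (DLST, DGAT2 and FBXO8), the combined comparison 859 and the difference 189. Same-numbered birds correlated from -0.392 to 0.382 in their deviations from group means, so not every pair passed 0.1 and the labels name no shared source. As a hint from the data, a treated bird, with 5 fed birds to match, correlated best with that of its own number in 7 of 10 cases. A fasted bird correlated best with the insulin-neutralized bird of its number in 0 of 5. Leaving out 1 bird gave 539 to 1397 combined calls (fewest without fed bird 4, most without fed bird 2), 3 to 37 same-way calls (fasted bird 1, fasted bird 2) and 149 to 243 treatment differences. The difference count moved by over 1.5 times without fasted bird 4 (153), insulin-neutralized bird 1 (159), 3 (149) or 5 (161). Of the 135 named genes called in the combined comparison, 78 were called in all 15 of those fits. The promoter motif count planned beside these results was not run. Changes of low genes are compressed near the lowest value of 2.18.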
